A study of Homo sapiens with 12 samples.

Results

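Expression of 10 genes known as targets of the transcriptional coactivator YAP and its TEAD partners was followed in LX2 cells: CCN1, CCN2, ANKRD1, AMOTL1, AMOTL2, AJUBA, CRIM1, AXL, LATS2 and TEAD1. They were chosen by name, with earlier results of these data known. All 10 were found under these symbols among the 60612 genes of the deposited FPKM table. LX2 is an established line of human hepatic stellate cells, the cells of the liver that deposit matrix when stimulated, and its genotype is labelled wild type. The study asked what TGFb changes in these cells and what changes when the cells are given the compound STINGX first. Every group was starved of serum for 16 h, beginning 24 h after seeding, and comprised 4 libraries of polyadenylated RNA. Control cells were left untreated and are labelled 16 h, TGFb cells received TGFb at 5 ng/ml for 16 h, and the cells written here as STINGX+TGFb received TGFb in the same way after 3 h with 10 µM STINGX, a compound named by code. No group received STINGX alone and the labels name no vehicle, so STINGX was measured only together with TGFb and beside untreated cells. Whether the replicates were separate cultures is not stated in the labels, and the p-values then reflect only how far these libraries differed, possibly for technical reasons.

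YAP and its relative TAZ (gene WWTR1) carry signals from cell shape, adhesion and matrix stiffness to the nucleus, where they act through DNA-bound TEAD factors. The Hippo kinases STK3, STK4, LATS1 and LATS2, with scaffold proteins, phosphorylate YAP and TAZ and keep them in the cytoplasm. Several targets encode regulators of the same pathway, among them LATS2, AMOTL1, AMOTL2 and AJUBA. In stellate cells YAP is known as a driver of the shift towards a matrix-producing state, and CCN2 is also a well-known target of TGF-beta signalling.

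TEAD factors bind the core GGAATG, and its matches near the start sites of these genes are shown because TEAD factors reach their targets through this element. RefSeq (GRCh38.p14) gave 10 promoter windows of 300 bases, 250 before and 50 after a start, for 7 of the 10 genes. The windows were searched on both strands, so that CATTCC is the same core read on the other strand. CCN1, CRIM1 and TEAD1 were not in the table. The stretch upstream of CCN2 (chr6:131951373-131951622, minus strand) held 3 matches, and it is given whole, followed by the 30 bases around each match of the other genes, 5′ to 3′ on the strand of the gene, with the core in capitals:
CCN2: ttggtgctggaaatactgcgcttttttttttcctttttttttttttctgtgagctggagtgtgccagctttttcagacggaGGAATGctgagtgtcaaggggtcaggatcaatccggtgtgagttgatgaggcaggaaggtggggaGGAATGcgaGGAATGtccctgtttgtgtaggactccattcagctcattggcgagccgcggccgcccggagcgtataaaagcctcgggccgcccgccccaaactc
ANKRD1, first match: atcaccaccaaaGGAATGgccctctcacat
ANKRD1, next match: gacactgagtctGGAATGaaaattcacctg
AMOTL2: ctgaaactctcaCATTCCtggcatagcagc
AJUBA: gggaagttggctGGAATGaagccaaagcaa
AXL: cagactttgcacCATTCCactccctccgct
LATS2: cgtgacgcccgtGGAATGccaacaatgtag

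In CCN2 the 3 cores began 169, 104 and 95 bases before the start. The ANKRD1 cores lay 220 and 128 bases before its start (chr10:90921290-90921319 and chr10:90921198-90921227, minus strand). Those of AMOTL2 (chr3:134374499-134374528, minus strand), AJUBA (chr14:22976884-22976913, minus strand) and AXL (chr19:41226531-41226560, plus strand) belonged to the second of 2 windows of each gene, and lay 69, 59 and 212 bases before the start. For AXL that start (41226755) is that of the transcript AXL-203, which held at most 1.19% of AXL counts in any library. The leading transcripts AXL-201 and AXL-202 start at 41219203 and 41219235, within the first AXL window. For AJUBA the second start (22976842) lies within the spans of the leading transcripts AJUBA-203 and AJUBA-201, which start at 22977223 and 22982642. The AJUBA core is therefore downstream of both of these starts. The LATS2 core (chr13:21061560-21061589, minus strand) began 10 bases after the start. No match was found in the window of AMOTL1 or in the other windows of AMOTL2, AJUBA and AXL. Of 34943 RefSeq windows of 300 bases, 14% held at least 1 match, 1.37% at least 2 and 0.126% at least 3. TGANTCA, the core of the AP-1 factors, was found on either strand once, in ANKRD1 (7.72% of all windows), and CAGAC, a short SMAD element, in every window except the second of AMOTL2 (45.3% of all windows). A match is a description of the letters and was not tested for binding.

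Library totals ran from 54035320 to 70787741 counts, so that 1 count was worth 0.0141 to 0.0185 CPM (counts scaled to a common library total by the TMM library sizes). Stellate markers were present except DES and LRAT, which were at 0 in all libraries, and the 10 markers together summed to 6068.8 to 6217.5 CPM in control, 10080.5 to 10354.9 with TGFb and 4848.9 to 5291.0 with STINGX+TGFb. The stellate markers did not move together. In the same order of groups COL1A1 stood at 2307.1, 6367.1 and 1644.0 CPM, COL3A1 at 584.4, 350.8 and 183.1, and VIM at 2951.4, 2984.8 and 3006.1. Of 6 hepatocyte markers ALB, APOB and TTR were at 0, and the list summed to at most 10.5 CPM in any library. Endothelial markers (LYVE1 at 0) summed to at most 6.46 CPM. Macrophage and leukocyte markers summed to 72.8 to 80.6, 30.0 to 35.3 and 74.6 to 90.1 CPM, and cholangiocyte markers to 44.7 to 48.8, 56.7 to 65.1 and 29.4 to 30.7 CPM, in control, TGFb and STINGX+TGFb. PTPRC, CD163 and MARCO of the first list and KRT19 and EPCAM of the second averaged at most 0.255 CPM in any group. The sums came from CD68 (59.6, 24.4 and 75.9 CPM in control, TGFb and STINGX+TGFb), CD14 (15.7, 2.42 and 2.3) and CSF1R (1.24, 6.03 and 3.47), and from KRT7 (14.8, 29.4 and 9.79) and SOX9 (31.5, 30.8 and 20.5). Both lists moved with the groups, and their part in the results was not tested. The scaling of the libraries matters for small changes: with library size alone the median log2 change of all genes was -0.068 for TGFb against control, 0.147 for STINGX+TGFb against TGFb and 0.081 for STINGX+TGFb against control. The share of called genes that were higher was then 38.7%, 72.6% and 62.0%, against 50.7%, 50% and 50.3% with TMM scaling, and it was 39.0%, 71.9% and 61.9% on log2(FPKM + 0.1).

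Under TGFb the 10 genes did not move as one. CCN2 rose most, ANKRD1 rose by less, CRIM1 and AMOTL1 rose slightly, and AJUBA, AXL and LATS2 fell. By edgeR's quasi-likelihood test with Benjamini-Hochberg adjustment over 21328 genes (threshold 0.05), 4 of 10 were higher and 3 lower, where 26% of all genes tested were called (13.2% higher, 12.8% lower). These shares include genes of low count. With the filter of 1 CPM, 2691 of 15596 genes were higher with TGFb and 2671 lower. That filter gave 2847 higher and 2904 lower for STINGX+TGFb against TGFb, and 3479 and 3467 for STINGX+TGFb against control. The median log2 change of the 10 with TGFb was 0.13. The count of higher genes was 2 with library size alone, upper quartile scaling, log2(FPKM + 0.1) or only the 2 groups in the fit. CRIM1 and AMOTL1 did not pass there. With 1 library left out at a time, AMOTL1 passed in only 2 of 12 fits. CCN1, AMOTL2 and TEAD1 did not pass. In these bulk samples fewer cells of a type and less RNA per cell cannot be told apart.

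With STINGX given before TGFb, CCN2, ANKRD1, CRIM1 and AXL were lower than with TGFb alone, and CCN1 and LATS2 were higher. That is 2 of 10 higher and 4 lower, where 27.5% of all genes were called (13.7% higher, 13.8% lower), with a median log2 change of -0.31 for the 10 and 0.01 for all genes. Against control, STINGX+TGFb cells had more CCN1 and CCN2 and less ANKRD1, CRIM1, AXL and AJUBA, 2 higher and 4 lower where 34.2% of all genes were called (17.2% higher, 17% lower), with a median of -0.02. The comparisons share libraries, so their values are given side by side and were not correlated. CCN2, ANKRD1 and CRIM1 passed as higher with TGFb and as lower with STINGX+TGFb than with TGFb, and LATS2 as lower and then higher. The 4 libraries of one group lay beyond the 4 of the other for 7 of the 10 genes with TGFb (4 higher, 3 lower; 27.1% of all genes tested, 13.9% higher and 13.1% lower), for 8 between STINGX+TGFb and TGFb (2 higher, 6 lower; 31.6%, 15.9% and 15.7%) and for 6 between STINGX+TGFb and control (2 higher, 4 lower; 34.5%, 17.8% and 16.7%).

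**Figure D1:**
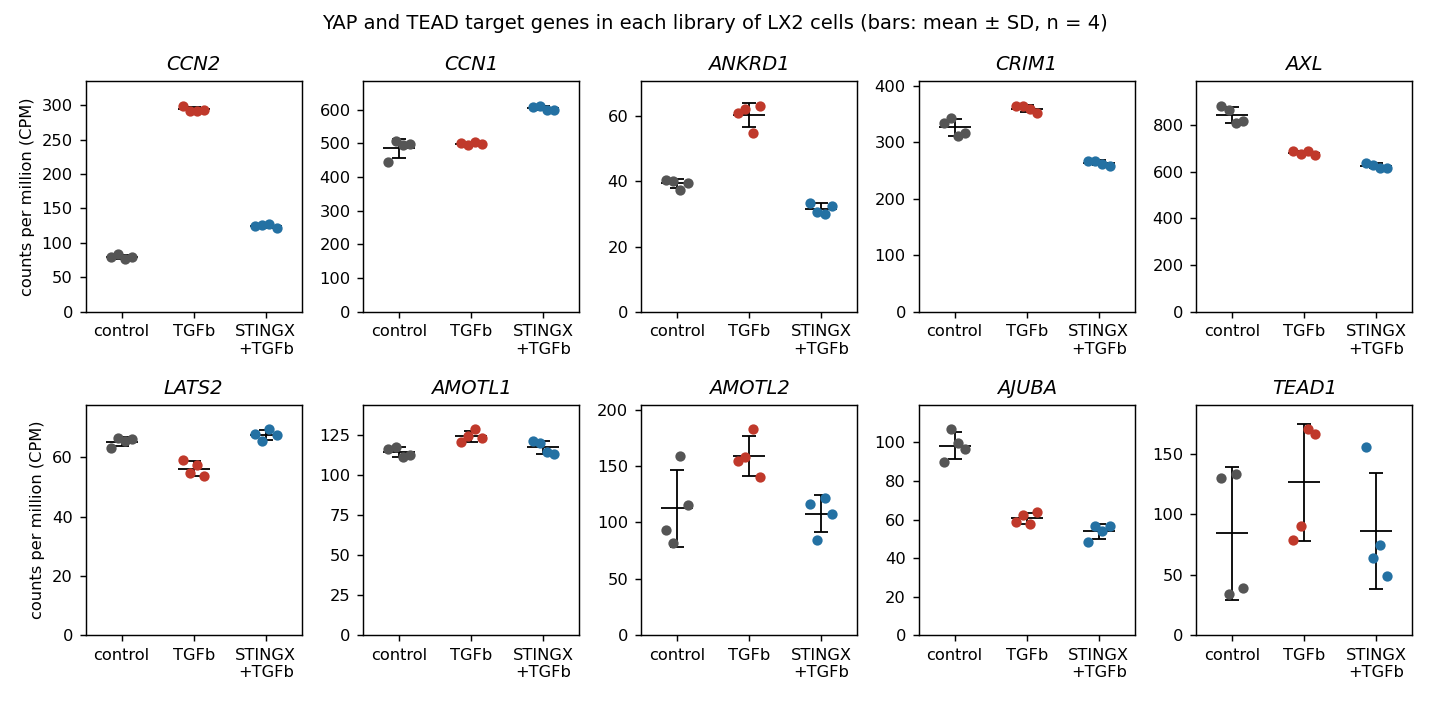
Level of each of the 10 genes in CPM (vertical axes, each from 0) in the 4 libraries of control, TGFb and STINGX+TGFb cells; points are libraries and bars are mean ± SD. CCN2 libraries with TGFb lie between 292.2 and 299.3 CPM, far above the others, while TEAD1 and AMOTL2 scatter widely within groups.

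CCN1 and CCN2 encode secreted matricellular proteins that bind integrins and matrix. CCN2 (ENSG00000118523, chromosome 6, 131948176 to 131951372, minus strand) stood at 79.5, 83.7, 76.6 and 78.8 CPM in control, at 299.3, 292.3, 292.2 and 293.8 with TGFb, and at 124.0, 125.4, 127.2 and 121.0 with STINGX+TGFb. The groups did not overlap, and the STINGX+TGFb libraries lay between the other groups. The means were 79.6 ± 2.96, 294.4 ± 3.35 and 124.4 ± 2.61 CPM (SD, n = 4). CCN2 was 3.70-fold higher with TGFb than in control (log2 1.89 ± 0.04 SE, adjusted p = 1.68e-12), at 0.423 of the TGFb level with STINGX+TGFb (-1.24 ± 0.04, adjusted p = 8.48e-11), and still 1.56-fold above control (0.64 ± 0.04, adjusted p = 3.31e-08). Its whole count fell on 1 annotated transcript.

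CCN1 (ENSG00000142871, chromosome 1, 85580761 to 85583950, plus strand) stood at 443.5, 505.4, 494.1 and 497.8 CPM in control, at 499.6, 495.6, 503.0 and 499.0 with TGFb, and at 607.2, 611.4, 598.9 and 600.1 with STINGX+TGFb. Control and TGFb libraries overlapped, and all STINGX+TGFb libraries were above both. The TGFb against control difference was 0.04 ± 0.04 on the log2 scale and did not pass (adjusted p = 0.493), and its sign turned with library size alone (-0.022). STINGX+TGFb was higher than TGFb by 0.28 ± 0.04 (adjusted p = 0.00016; 0.42 with library size alone) and higher than control by 0.32 ± 0.04 (adjusted p = 3.93e-05). The means were 485.2 ± 28.2, 499.3 ± 3.04 and 604.4 ± 5.94 CPM. Of the other CCN family members, CCN3, CCN4 and CCN5 were tested and all 3 were lower with TGFb than in control, as were 12.8% of all genes, CCN4 and CCN5 from low levels (1.44 ± 0.317 and 0.85 ± 0.265 CPM in control). CCN3 went from 20.5 ± 0.97 CPM in control to 6.31 ± 0.169 with TGFb and 9.65 ± 0.58 with STINGX+TGFb (log2 -1.70, 0.61 and -1.08 for TGFb against control, STINGX+TGFb against TGFb and STINGX+TGFb against control).

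ANKRD1 (ENSG00000148677, chromosome 10, 90912096 to 90921087, minus strand) encodes a nuclear and sarcomeric ankyrin repeat protein and is a widely used readout of YAP. It stood at 40.4, 40.2, 37.5 and 39.4 CPM in control, at 61.0, 62.2, 54.9 and 63.2 with TGFb, and at 33.4, 30.5, 29.9 and 32.5 with STINGX+TGFb. No groups overlapped, and here the STINGX+TGFb libraries were the lowest. TGFb raised it 1.53-fold (log2 0.62 ± 0.06, adjusted p = 5.42e-06), and it was at 0.523 of the TGFb level with STINGX+TGFb (-0.93 ± 0.06, adjusted p = 1.27e-07). Against control, STINGX+TGFb was lower by -0.32 ± 0.06 (adjusted p = 0.0011), the opposite sign to CCN2.

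AXL is a receptor tyrosine kinase for the ligand GAS6, and CRIM1 is a transmembrane protein that binds BMP ligands. AXL (ENSG00000167601, chromosome 19, 41219223 to 41261766, plus strand) stood at 882.0, 861.8, 806.6 and 818.6 CPM in control, at 687.6, 677.1, 687.8 and 670.5 with TGFb, and at 637.2, 630.1, 614.0 and 617.2 with STINGX+TGFb. The libraries of the 3 groups did not overlap and descended from control to STINGX+TGFb. AXL fell by 0.31 ± 0.03 on the log2 scale with TGFb (adjusted p = 1.79e-05), and STINGX+TGFb was lower than control by -0.43 ± 0.03 (adjusted p = 6.77e-07). The step from TGFb to STINGX+TGFb, -0.12 ± 0.03 (adjusted p = 0.0145), depended on the scaling: its sign turned with library size alone (0.016) and on FPKM (0.014), where the median of all genes was itself above 0.

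CRIM1 (ENSG00000150938, chromosome 2, 36355778 to 36551135, plus strand) stood at 334.3, 343.4, 311.2 and 316.3 CPM in control, at 364.4, 364.7, 358.4 and 351.7 with TGFb, and at 267.0, 267.5, 261.8 and 258.5 with STINGX+TGFb. The groups did not overlap, with TGFb highest and STINGX+TGFb lowest, in the same order as ANKRD1. The rise with TGFb was small (0.14 ± 0.04, adjusted p = 0.0123) and did not pass with library size alone (adjusted p = 0.0615), upper quartile scaling (0.051), log2(FPKM + 0.1) (0.0511) or only the 2 groups in the fit (0.0619), in a range of 0.00625 to 0.0619 over 13 settings. STINGX+TGFb was lower than TGFb by -0.45 ± 0.04 (adjusted p = 1.31e-06) and lower than control by -0.31 ± 0.04 (adjusted p = 3.16e-05). CRIM1 overlaps FEZ2 on the opposite strand (mean 55.2 CPM), and use of strand in the counting is not given in the sources used here, so reads of the shared stretch are uncertain.

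**Figure D2:**
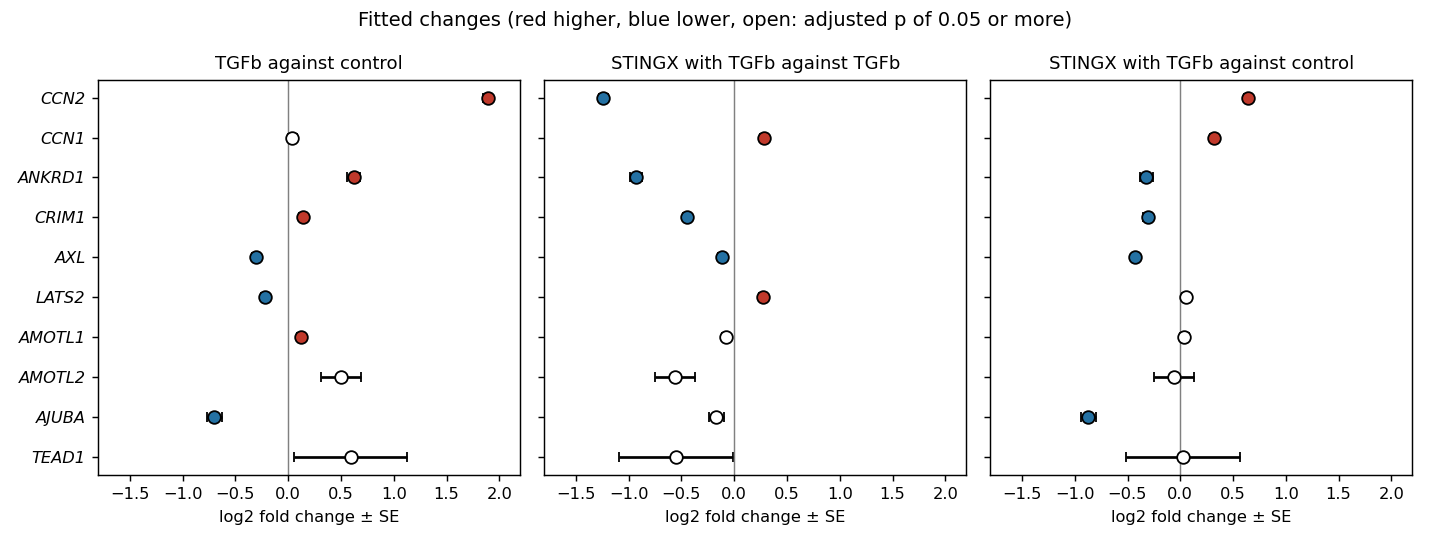
Fitted log2 fold change ± SE (horizontal axes) of the 10 genes in the 3 comparisons; red circles are higher, blue lower, and open circles had an adjusted p of 0.05 or more. CCN2 spans 1.89 to -1.24, and the wide bars of TEAD1 (SE 0.54) and AMOTL2 (SE 0.19) stand out.

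Of the 10 genes, 4 feed back on the pathway. LATS2, the kinase that phosphorylates YAP and TAZ (ENSG00000150457, chromosome 13, 20973036 to 21061586, minus strand), stood at 63.2, 66.3, 65.4 and 66.0 CPM in control, at 59.1, 54.5, 57.5 and 53.5 with TGFb, and at 67.9, 65.3, 69.3 and 67.6 with STINGX+TGFb. All TGFb libraries were below the others, and the control and STINGX+TGFb libraries overlapped. LATS2 fell by 0.22 ± 0.04 with TGFb (adjusted p = 0.00291) and was higher by 0.27 ± 0.04 with STINGX+TGFb than with TGFb (adjusted p = 0.000611; 0.41 with library size alone), with no call against control (0.05 ± 0.04, adjusted p = 0.421). The latter passed on log2(FPKM + 1) (adjusted p = 0.0409) and log2(FPKM + 0.1) (0.0447), in a range up to 0.997.

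AJUBA, a LIM domain protein that binds and restrains LATS kinases (ENSG00000129474, chromosome 14, 22971177 to 22982551, minus strand), stood at 89.9, 106.7, 99.6 and 96.8 CPM in control, at 58.5, 62.2, 57.6 and 64.0 with TGFb, and at 48.2, 56.5, 54.3 and 56.5 with STINGX+TGFb. Every control library was above every treated one. AJUBA fell by 0.70 ± 0.07 with TGFb (adjusted p = 5.75e-06), to 0.617 of its control level, and STINGX+TGFb was at 0.548 of control (-0.87 ± 0.07, adjusted p = 6.56e-07). The step from TGFb to STINGX+TGFb was -0.17 ± 0.07 and did not pass (adjusted p = 0.0816), although the libraries did not overlap.

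AMOTL1 and AMOTL2 encode angiomotin-like scaffolds that bind YAP at junctions and actin. AMOTL1 (ENSG00000166025, chromosome 11, 94706431 to 94876748, plus strand) stood at 116.3, 117.4, 111.1 and 112.1 CPM in control, at 120.3, 123.9, 128.2 and 123.0 with TGFb, and at 120.7, 120.0, 114.2 and 113.2 with STINGX+TGFb. Its libraries lay close together, and only the control and TGFb groups did not overlap. The rise with TGFb, 0.12 ± 0.04 (adjusted p = 0.0435), was at the threshold. It passed in 4 of 13 other settings and in 2 of 12 fits with 1 library left out, with adjusted p from 0.0265 to 0.387. Neither comparison of STINGX+TGFb passed (-0.08 ± 0.04 against TGFb, adjusted p = 0.146, and 0.04 ± 0.04 against control, adjusted p = 0.532). The first turned to 0.059 with library size alone.

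AMOTL2 (ENSG00000114019, chromosome 3, 134355874 to 134374594, minus strand) stood at 93.5, 81.7, 159.2 and 115.6 CPM in control, at 154.6, 157.9, 182.4 and 140.0 with TGFb, and at 116.4, 84.8, 121.9 and 107.3 with STINGX+TGFb. Control replicate 3 was inside the TGFb range, and every TGFb library was above every STINGX+TGFb library. The difference of TGFb from control was 0.50 ± 0.19 (adjusted p = 0.0846) and that of STINGX+TGFb from TGFb -0.56 ± 0.19 (adjusted p = 0.0513), so neither passed. Without control replicate 3 the first was 0.709 (adjusted p = 0.00548), and over all settings tried its adjusted p ran from 0.00548 to 0.957. The second passed in 6 of 13 other settings and without control replicate 2 (adjusted p = 0.0314) or control replicate 3 (0.0109).

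TEAD1, a DNA-binding partner of YAP and itself on the list (ENSG00000187079, chromosome 11, 12674421 to 12944737, plus strand), scattered most. It stood at 129.9, 34.2, 133.2 and 39.2 CPM in control, at 79.0, 90.0, 170.0 and 166.2 with TGFb, and at 155.9, 63.6, 74.8 and 49.4 with STINGX+TGFb. Each group held high and low libraries and all groups overlapped. No comparison passed (0.59 ± 0.54, -0.55 ± 0.54 and 0.03 ± 0.54, adjusted p = 0.487, 0.504 and 0.971). With an SE of 0.54, changes of the size seen for ANKRD1 were not detectable for TEAD1 in these libraries.

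The 10 genes differed in how well their replicates matched. The coefficient of variation (SD over mean) of TEAD1 was 65.2%, 38.4% and 55.6% in control, TGFb and STINGX+TGFb, above that of 98.4%, 94.7% and 98% of the 13646 genes of at least 2 CPM. For AMOTL2 it was 30.4%, 11.1% and 15.2%. CCN2 varied by 3.72%, 1.14% and 2.09%, and CCN1 under TGFb by 0.609%, below all but 0.147% of genes. The median gene varied by 9.71%, 8.43% and 7.23%.

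The counts of TEAD1 and AMOTL2 were also divided by transcript. For TEAD1, the transcript TEAD1-203 (ENST00000526600, 12879443 to 12944483) held 71.9 ± 13.8%, 80.9 ± 8.35% and 70.8 ± 10.6% of the counts. Within control it stood at 116.4, 19.1, 94.8 and 27.9 CPM, a 6.11-fold range, while the whole gene ranged 3.90-fold and the other transcripts together stood at 13.5, 15.1, 38.4 and 11.3, a 3.39-fold range. With STINGX+TGFb the leading transcript stood at 58.8 ± 25.7 and the others at 27.2 ± 24 CPM. In the transcript names used here, from GENCODE 29, AMOTL2-207 (ENST00000506326, 134356185 to 134366841) is a retained intron, that is, not a coding messenger. It held 44.0 ± 13.2%, 59.2 ± 8.21% and 43.2 ± 22% of AMOTL2 counts, at 50.3 ± 21.3, 95.0 ± 23.6 and 47.0 ± 26.3 CPM. The rest of AMOTL2 stood at 62.2 ± 22.6, 63.7 ± 6.47 and 60.6 ± 25.4 CPM, with an SD like that of AMOTL2-207 in control and STINGX+TGFb. With retained intron transcripts left out of all genes, an alternative added after seeing the data, the log2 difference of AMOTL2 was 0.03 for TGFb against control and -0.08 for STINGX+TGFb against TGFb.

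**Figure D3:**
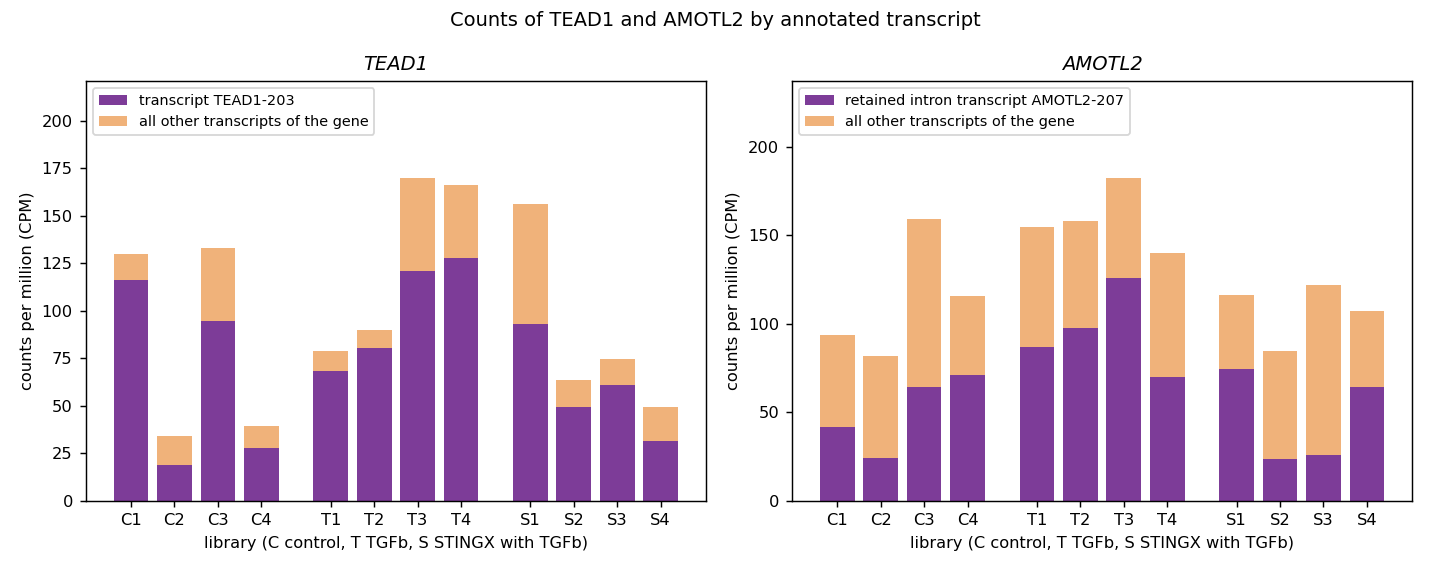
Stacked bars of CPM (vertical axis, from 0) in each of the 12 libraries (C control, T TGFb, S STINGX+TGFb, numbered by replicate) for TEAD1 and AMOTL2, split into the leading transcript (purple) and all others (orange). The purple part ranges 6.11-fold among the control libraries of TEAD1, and for AMOTL2 it averages 95.0 CPM with TGFb against 50.3 in control.

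The other genes were carried by these transcripts. ANKRD1 had 1 annotated transcript. CRIM1 lay on CRIM1-201 by at least 99.0% and LATS2 on LATS2-201 by at least 99.4% in every library. The leading CCN1 transcript, CYR61-201 after the older symbol, held 43.4 ± 6.18% in control, 52.2 ± 2.70% with TGFb and 46.2 ± 1.04% with STINGX+TGFb. Much of the rest lay on transcripts without a type here: ENST00000674743 (20.7% to 33.2% over all libraries), ENST00000676007 (6.96% to 15.9%) and ENST00000674818 (8.62% to 13.1%). The alternative without retained intron transcripts could therefore not sort them. From TGFb to STINGX+TGFb the mean share of CYR61-201 was lower, and the shares of these others were higher. ENST00000674743 went from 22.7 ± 1.99% to 26.7 ± 0.465%, ENST00000676007 from 8.61 ± 0.803% to 13.2 ± 1.33% and ENST00000674818 from 10.1 ± 1.05% to 11.3 ± 1.25%. The higher CCN1 level with STINGX+TGFb is that of the whole gene, and its division by transcript was not tested. AXL-201 held 92.1 ± 3.29% of AXL in control, but 46.5% in TGFb replicate 3 and 39.5% in STINGX+TGFb replicate 3, where AXL-202 took 53.2% and 60.2%. AMOTL1-203 held 53.3% and 43.0% of AMOTL1 in control replicates 1 and 2, and 98.1% and 97.0% in replicates 3 and 4. AJUBA divided between AJUBA-203 (57.6 ± 10.9%, 48.8 ± 4.04% and 47.0 ± 17.6%) and AJUBA-201. None of the 24 exact two-sided permutation tests of leading shares (8 genes, 3 comparisons, 4 libraries against 4) passed after Benjamini-Hochberg adjustment. The lowest p was 0.0286, for CCN1 between STINGX+TGFb and TGFb, the smallest p this design allows, and the lowest adjusted value was 0.457. Over 24 tests, a single share at that smallest p could not pass after adjustment. The tests therefore cannot decide whether the share of any one gene differed. These shares are the authors' estimates for overlapping transcripts.

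Per length, in FPKM, AXL and CCN1 were the most abundant of the 10. In control the order was AXL (137.3 ± 3.26 FPKM), CCN1 (109.9 ± 7.42), CRIM1 (37.6 ± 1.01), CCN2 (28.5 ± 0.666), ANKRD1 (18.4 ± 0.347), AMOTL2 (15.8 ± 5.10), AJUBA (14 ± 1.0), LATS2 (9.73 ± 0.329), AMOTL1 (9.53 ± 0.067) and TEAD1 (6.59 ± 4.32). ANKRD1 and AMOTL2 overlapped, as did AMOTL2 and AJUBA, LATS2 and AMOTL1, and AMOTL1 and TEAD1. With TGFb, CCN2 reached 101.1 ± 1.02 FPKM, next to CCN1 (108.4 ± 1.57) and AXL (106.5 ± 1.48), whose libraries overlapped each other. CRIM1 (39.7 ± 0.375), ANKRD1 (27.1 ± 1.61) and AMOTL2 (21.3 ± 2.43) followed without overlap, and AMOTL1, TEAD1, AJUBA and LATS2 lay between 8.03 and 9.91 FPKM on average with overlapping neighbours. With STINGX+TGFb, CCN1 led alone at 144.4 ± 0.614, above AXL at 107.5 ± 1.36, CCN2 at 47.0 ± 1.09 and CRIM1 at 32.0 ± 0.403. AMOTL2 (15.9 ± 2.48) and ANKRD1 (15.6 ± 0.792) overlapped there, LATS2 (10.6 ± 0.319) overlapped AMOTL1 (10.3 ± 0.290), and AJUBA (8.08 ± 0.596) overlapped TEAD1 (7.09 ± 3.93).

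**Figure D4:**
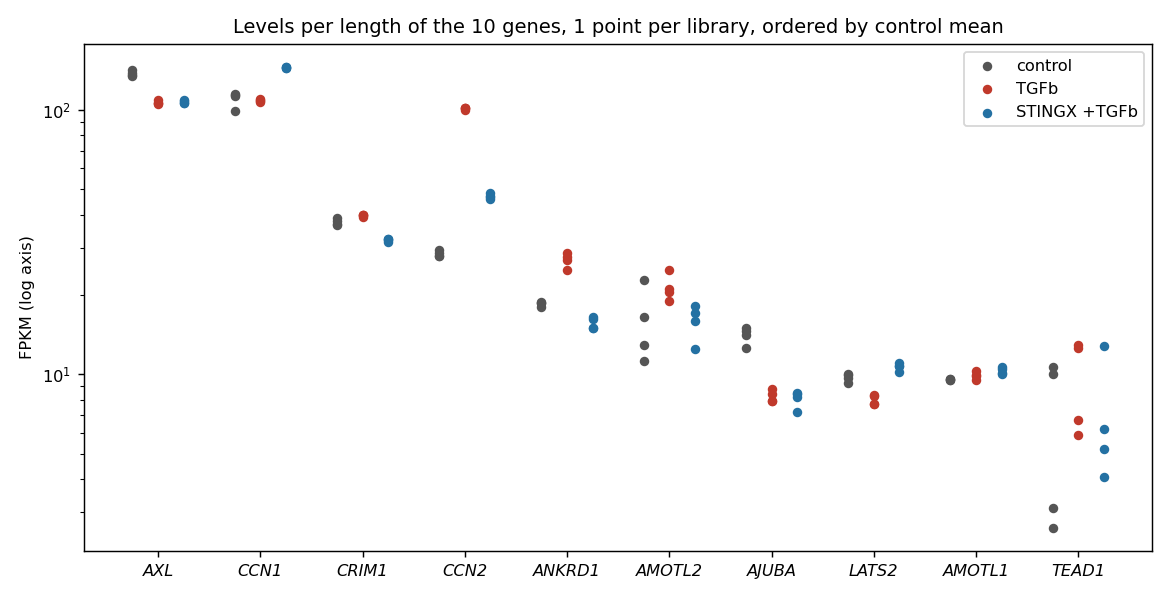
FPKM of the 10 genes on a log axis, 1 point per library, ordered by their control mean, in control (grey), TGFb (red) and STINGX+TGFb (blue). CCN2 moves from 28.5 to 101.1 FPKM with TGFb, just below AXL at 106.5 and CCN1 at 108.4.

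Among the partners of these targets, YAP1 and VGLL4, a TEAD cofactor that competes with YAP, had no call in any comparison with TMM scaling and all libraries. YAP1 stood at 132.2 ± 43.5, 115.3 ± 14.1 and 135.6 ± 20.4 CPM in control, TGFb and STINGX+TGFb (adjusted p = 0.609, 0.526 and 0.924 for TGFb against control, STINGX+TGFb against TGFb and STINGX+TGFb against control). Without control replicate 3 the difference of YAP1 for TGFb against control, -0.20 on the log2 scale, became -0.42 and passed (adjusted p = 0.0257), while leaving out any other library gave adjusted p-values up to 0.851. VGLL4 passed as higher for STINGX+TGFb against TGFb in 4 of 13 other settings, library size alone and those on FPKM (adjusted p from 0.00456 to 0.349 over the 13). WWTR1 fell with TGFb, from 59.1 ± 3.06 to 50.6 ± 1.51 CPM (log2 -0.22, adjusted p = 0.0076), and stood at 48.8 ± 2.41 with STINGX+TGFb. Of the other TEAD genes, TEAD2 rose with TGFb (19.0 ± 1.61 to 26.0 ± 1.52 CPM, log2 0.45, adjusted p = 0.0175), TEAD3 had no call, and TEAD4 was lower with STINGX+TGFb than in control (39.9 ± 4.15 CPM in control and 33.2 ± 1.37 with STINGX+TGFb, log2 -0.27, adjusted p = 0.012). With TGFb alone TEAD4 already stood at 34.6 ± 1.26 CPM (log2 -0.21 against control, adjusted p = 0.0518, past the threshold in 8 of 13 other settings). It had no call between STINGX+TGFb and TGFb (-0.06, adjusted p = 0.607). Of the vestigial-like cofactors, VGLL3 rose with TGFb (log2 0.77) and was slightly lower with STINGX+TGFb (-0.18 against TGFb, adjusted p = 0.0267), and VGLL2 fell from 8.07 ± 1.64 to 3.16 ± 0.294 and then 1.13 ± 0.224 CPM. The lower VGLL3 passed in 8 of 13 other settings (log2 -0.192 to -0.038, adjusted p up to 1.0) and in 7 of 12 fits with 1 library left out. It was lost without TGFb replicate 1 or 3 or STINGX+TGFb replicate 2, 3 or 4 (adjusted p up to 0.0741). In this list of coactivators and TEAD factors, 8 of 9 were tested besides TEAD1, with 2 higher and 2 lower (TGFb against control), 0 higher and 2 lower (STINGX+TGFb against TGFb) and 2 higher and 3 lower (STINGX+TGFb against control), and medians of -0.14, -0.06 and -0.11, where 26%, 27.5% and 34.2% of all genes were called.

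The 32 other Hippo kinases and scaffolds split in both directions. With TGFb 9 were higher and 7 lower (median 0.08), with STINGX+TGFb 6 were higher and 9 lower than with TGFb (median 0.00), and 12 higher and 8 lower than in control (median 0.02), where 26%, 27.5% and 34.2% of all genes were called. LATS1, the kinase most like LATS2, rose from 33.5 ± 1.69 CPM in control to 41.2 ± 2.62 with TGFb (log2 0.30, adjusted p = 0.0043) and 47.7 ± 2.97 with STINGX+TGFb (0.21 against TGFb, adjusted p = 0.0258), whereas LATS2 fell and then was higher. The scaffold gene FRMD6 rose from 273.4 ± 6.34 to 649.3 ± 3.59 CPM with TGFb (log2 1.25) and was lower with STINGX+TGFb (516.2 ± 10.0, -0.33 against TGFb). PTPN14, a phosphatase that binds YAP, went the same way (0.56 and -0.39), STK38L, a kinase related to LATS, rose (0.95), and WWC2, of the KIBRA family, rose (0.52). The protocadherins FAT4 (-1.63) and DCHS1 (-0.84) and the kinase TAOK3 (-0.29) fell with TGFb. AMOT, the founding relative of AMOTL1 and AMOTL2, fell from 20.1 ± 0.562 to 13.4 ± 1.49 CPM with TGFb (log2 -0.59, adjusted p = 0.000109) and stood at 19.9 ± 0.752 with STINGX+TGFb (0.57 against TGFb, adjusted p = 0.00013). FAT1 (0.42), TAOK3 (0.46) and STK3 (0.24) were higher with STINGX+TGFb than with TGFb, and DCHS1 (-0.63), MAP4K4 (-0.48) and WWC1 (-0.40) lower. For STINGX+TGFb against TGFb, STK3 passed in 6 of 12 fits with 1 library left out. It did not pass without TGFb replicate 1, 2 or 3 or STINGX+TGFb replicate 1, 2 or 4 (adjusted p up to 0.108). LATS1 passed in 8 of 12 such fits, and not without TGFb replicate 2 or 4 or STINGX+TGFb replicate 1 or 2 (adjusted p up to 0.0819). With library size alone the split of this comparison was 13 higher and 5 lower.

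Of 22 other known YAP and TEAD targets, 10 were higher and 7 lower with TGFb than in control (median 0.12), 7 higher and 12 lower with STINGX+TGFb than with TGFb (median -0.32), and 7 higher and 9 lower than in control (median -0.01), where 26%, 27.5% and 34.2% of all genes were called. The medians of the 10 genes described above were 0.13, -0.31 and -0.02, beside -0.004, 0.006 and 0.004 for all genes. Both lists were chosen with earlier results of these data known, so neither is independent support for the other. THBS1, the matrix glycoprotein thrombospondin, rose from 238.2 ± 3.55 to 915.9 ± 9.63 CPM (log2 1.94) and stood at 260.1 ± 6.62 with STINGX+TGFb (-1.82 against TGFb, 0.13 against control). The kinase gene NUAK1 (1.71 and -1.02), its relative NUAK2 (0.48 and -1.06) and the ligand TGFB2 (0.91 and -0.23) also rose with TGFb and were lower with STINGX+TGFb than with TGFb, as CCN2, ANKRD1 and CRIM1 were. The lower TGFB2 passed in 9 of 13 other settings and not with library size alone or on FPKM (nearest to 0 at -0.081, adjusted p up to 0.382). THBS1 and TGFB2 are known TGF-beta targets too.

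Others of this list went the way of LATS2, lower with TGFb and higher with STINGX+TGFb than with TGFb. F3, which encodes tissue factor, went from 105.0 ± 6.78 to 34.0 ± 3.06 and then 53.2 ± 4.2 CPM (log2 -1.62 and 0.64). MYOF, a membrane repair protein (-1.06 and 0.65), ARHGAP29, a regulator of RHOA (-0.63 and 0.34), and ASAP1 (-0.34 and 0.30) did the same. GADD45A, a stress response gene, was slightly lower with TGFb than in control (-0.24, adjusted p = 0.044) and higher with STINGX+TGFb than with TGFb (0.75). The lower GADD45A passed in 10 of 13 other settings and in only 2 of 12 fits with 1 library left out. The growth factor FGF2 had no call with TGFb and was higher with STINGX+TGFb than with TGFb (0.49), like CCN1. IGFBP3 was lower (-1.17) than with TGFb, and BIRC5, a mitotic survival gene, fell below control (27.7 ± 0.363 and 15.5 ± 1.95 CPM, log2 -0.84), as did FJX1 (-0.73).

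**Figure D5:**
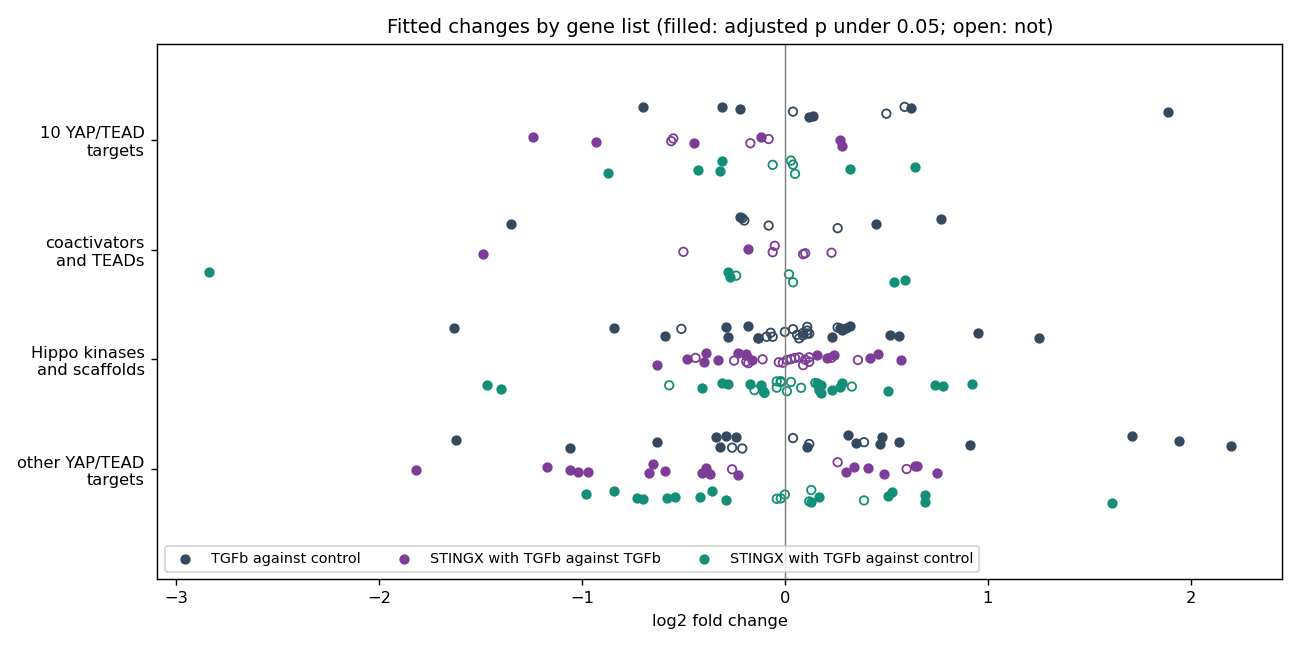
Fitted log2 fold change (horizontal axis) of every tested gene of 4 lists in the 3 comparisons (colours); filled circles had an adjusted p under 0.05 and open ones did not, and heights within a row are spread at random. Each list holds genes on both sides of 0, and among the other targets THBS1 stands at 1.94 for TGFb against control and at -1.82 for STINGX+TGFb against TGFb.

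For 4 of the genes the patterns most like theirs across the 12 libraries were sought among 13636 genes of at least 2 CPM, by Pearson correlation of log2 CPM, given as a description because libraries of a group share their treatment. CCN2 was closest to TNS1, a focal adhesion protein (r = 0.998), NEDD9, an adhesion scaffold (0.998), and MFSD12 (0.998). TNS1 stood at 103.6 ± 2.2, 385.7 ± 11 and 158.2 ± 3.98 CPM in the 3 groups. ANKRD1 was closest to IMPDH2 (0.991), SPARC, a matricellular protein (0.990), and FBN1, which encodes fibrillin (0.988), and SPARC stood at 695.0 ± 29.1, 1590.5 ± 22.5 and 482.3 ± 15.8 CPM, also lowest with STINGX+TGFb. CCN1 was closest to MAP3K10 (0.976), RPN1 (0.970) and ZNF142 (0.970), and AXL to MATN2, CTSA and ECM1 (each 0.991).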

How the data were processed

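Polyadenylated RNA of 12 LX2 libraries, 3 groups of 4 as the labels give them, was sequenced as read pairs from a strand-specific kit, per the labels' protocols. The submitters' processing notes name cutadapt (adapter trimming), HISAT2 (alignment), StringTie (transcript quantification), edgeR and the build GRCh38; the sources used here give no versions, parameters or use of strand. Estimated counts for genes and for transcripts, all whole numbers, were deposited by the authors together with FPKM values (fragments scaled to gene length and library total), in which a count of 0 is listed at 0.0001. The FPKM values deposited by the authors were used for levels and as an alternative.

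The test on gene counts was that of edgeR 4.0.16 under R 4.3.3 (filterByExpr, minimum count 10 and total 15, leaving 21328 genes; TMM; glmQLFit and glmQLFTest, robust quasi-likelihood, on all 12 libraries, legacy = FALSE) with Benjamini-Hochberg adjustment over all genes and a threshold of 0.05. SE is the log2 change over the square root of F. The 10 genes and the lists were chosen with earlier results of these data known. Named from the lists were YAP1, WWTR1, the TEAD genes, LATS1 and VGLL4 always, and in each list and comparison up to 4 higher and 4 lower called genes with the largest change and a mean of at least 2 CPM, except for a gene that is not reported here. For CCN1, CCN2, ANKRD1 and AXL the 3 most correlated genes were named.

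Alternatives were DESeq2 1.42.0, library size or upper quartile scaling, no filter or 1 CPM, limma-voom (limma 3.58.1), the older quasi-likelihood fit, limma on FPKM with a pseudocount of 1 or 0.1, only the 2 groups compared, a replicate block and each library left out. Replicates of a group differed beyond sampling noise in every pair (chi-square 42.1 to 89.3 per degree of freedom). Overlaps with neighbours were checked for the 10 genes, YAP1 and WWTR1 only: besides FEZ2 in CRIM1, the genes overlapping any of the 10 averaged at most 0.332 CPM. Fragments carried no molecular identifiers. Promoter sequences are RefSeq's, and transcript types are from GENCODE 29.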

Additional observations from a re-analysis of the deposited data

Results flagged for a closer look

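In 162 groups of 4 libraries (46 genes and the leading transcript share of 8 of the 10 genes), 13 had 1 library whose gap to its nearest neighbour was a larger part of the group's range than the 95% critical value of Dixon's test for 4 values. Chance alone gives such a gap in about 1 in 20 groups. None of these was the count of one of the 10 genes.

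Among the transcript shares, AXL-201 held 46.5% of AXL counts in TGFb replicate 3 and 89.9% to 93.0% in the other TGFb libraries. The share of LATS2-201 in TGFb replicate 4 was 99.7% where the others were at 100%. Those others held 0 counts of LATS2-202 and were tied, so the 8 counts in replicate 4 were bound to be flagged. The rate of 1 in 20 does not apply there.

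YAP1 stood at 67.3 CPM in control replicate 3 (149.3 to 160.0 in the others) and at 136.4 in TGFb replicate 3 (107.4 to 109.7), so the same gene was far from its group in opposite directions. TEAD3 stood at 38 CPM in control replicate 1 (78.5 to 85.8) and 46.2 in TGFb replicate 4 (97.8 to 100.8).

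Among Hippo kinases and scaffolds, STK38L stood at 11.6 CPM in control replicate 3 (15.7 to 16.1), WWC1 at 45.9 in control replicate 1 (54.2 to 55.3), WWC2 at 87.2 in TGFb replicate 1 (67.8 to 70.3) and AMOT at 21.0 in STINGX+TGFb replicate 1 (19.4 to 19.6). Among other targets, THBS1 stood at 901.5 CPM in TGFb replicate 2 (920.0 to 921.8), TGFB2 at 81.8 in TGFb replicate 4 (88.6 to 88.9) and FJX1 at 30.3 in control replicate 2 (25.7 to 26.0).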

How the results depend on the processing

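Of 390 values of the 10 genes under other settings, 342 kept direction and side of the threshold, 13 were no longer past it, 16 passed it and 19 changed sign. The calls of the 10 genes lost in any of these settings were those of CRIM1 and AMOTL1 with TGFb and of AXL for STINGX+TGFb against TGFb. The cause of the changes was not tested. The counts of higher genes among the 10 for TGFb against control became 2 with library size alone, upper quartile scaling, log2(FPKM + 0.1) or only the 2 groups, where CRIM1 and AMOTL1 did not pass, and for STINGX+TGFb against control 4 on log2(FPKM + 1) or log2(FPKM + 0.1).

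Signs turned mainly where the scaling moved all genes. With library size alone, log2(FPKM + 1) filtered, log2(FPKM + 0.1) and log2(FPKM + 1) unfiltered, in that order, CCN1 was -0.022, -0.017, -0.017 and -0.017 and FGF2 -0.024, -0.034, -0.037 and -0.034 for TGFb against control. For STINGX+TGFb against TGFb, AXL was 0.016, 0.014, 0.014 and 0.014, AMOTL1 0.059, 0.051, 0.056 and 0.051, WWTR1 0.087, 0.070, 0.082 and 0.070, and TEAD4 0.082, 0.074, 0.080 and 0.074. For STINGX+TGFb against control, AMOTL2 was 0.007, 0.042, 0.046 and 0.042, AMOT 0.060, 0.040, 0.058 and 0.040, ASAP1 0.034, 0.036, 0.039 and 0.036, and STK3 0.034, 0.017, 0.030 and 0.017. Upper quartile scaling gave AMOTL1 -0.016, LATS2 -0.00024, TEAD1 -0.019, YAP1 -0.014 and VGLL4 -0.033 for STINGX+TGFb against control, and FGF2 -0.002 for TGFb against control. Of all these, AXL for STINGX+TGFb against TGFb was the only one called with TMM.

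The same 4 settings counted 13, 12, 12 and 12 Hippo kinases and scaffolds higher and 5, 5, 5 and 3 lower for STINGX+TGFb against TGFb, and 4, 4, 4 and 3 lower against control (5 without retained intron transcripts). Of coactivators and TEAD factors they counted 1 higher and 1 lower for STINGX+TGFb against TGFb (1 lower also with no filter), and the unfiltered FPKM 1 higher for TGFb against control.

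With each library left out in turn, AMOTL2 ran from -0.191 to 0.149, TEAD1 from -0.426 to 0.344, YAP1 from -0.183 to 0.141, VGLL4 from -0.026 to 0.055 and ASAP1 from -0.079 to 0.001 for STINGX+TGFb against control, and FGF2 from -0.014 to 0.145 for TGFb against control. Counts ran from 5 to 8 for Hippo genes lower against control, and for coactivators from 1 to 2 higher and 2 to 4 lower (TGFb against control) and 1 to 2 lower (STINGX+TGFb against TGFb).

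Same-numbered libraries did not deviate together (correlations of -0.009 to 0.064 over 12 pairs, none over 0.1, against -0.072 to 0.079 for other pairs, and 3 libraries were closest to one of their own number). No shared deviation by number was seen, but this cannot tell whether same-numbered libraries came from the same culture or run. With the replicate block, AMOTL2 passed for TGFb against control (adjusted p = 0.0203) and STINGX+TGFb against TGFb (0.0145), AJUBA passed for the latter (0.0318), and AMOTL1 with TGFb did not (0.0621). Transcript FPKM in place of transcript counts was planned and not run, since none was used here.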
